A study of Mus musculus with 3647 samples.

Results

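Thalamic glutamatergic nuclei, as named here, were sorted together with inhibitory neurons of the thalamic reticular nucleus (TRN), the GABAergic shell around the dorsal thalamus. The name refers to excitatory relay neurons, an identity that the criteria below do not establish for every nucleus. These nuclei were chosen from single mouse nuclei by 3 transcript criteria. Snap25, a synaptic vesicle fusion gene of neurons, had to be above 0 TPM. Slc17a6, which encodes the vesicular glutamate transporter VGLUT2, had to reach 10 TPM. Slc17a6 also had to exceed the sum of Gad1 and Gad2, which encode the enzymes that make GABA. The criteria held for 13.1% of 1687 nuclei (exact Clopper-Pearson 95% interval 11.53 to 14.8%), with 24 of these nuclei on the plate named ThrP26, 12 to 25 on each of 8 plates sorted for NeuN, 57 on plates without that sort and 1 on another plate. The GABAergic nuclei they are set against had Snap25 above 0, Gad1 plus Gad2 of at least 100 TPM and more of these than of Slc17a6. They made up 54.5% of the 1687.

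Relay neurons carry sensory, motor and limbic signals to the cortex and send collaterals to the TRN, whose GABAergic axons return to inhibit them. Low-threshold T-type calcium channels let them fire either in bursts or in single spikes, and the VGLUT2 transporter fills their synaptic vesicles. The Wnt-pathway transcription factor Tcf7l2 is known as a regulator of thalamic identity, and several of its partners and neighbours in the thalamic programme (Lef1, Gbx2, Rora, Shox2) mark the dorsal thalamus or some of its nuclei.

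RNA of single nuclei was sequenced with a modified Smart-seq2 protocol after sucrose gradient isolation and flow sorting into plates, so that each nucleus is its own library. The groups used here were the adjacent-tissue plate ThrP26 (50 nuclei, a name the labels do not spell out), TRN plates sorted on a Violet signal together with an antibody against the neuronal nuclear protein NeuN (8 plates with 91 to 96 nuclei each), and TRN plates sorted on Violet alone (14 to 72 nuclei a plate, here called unselected). All were labelled with TRN as their source, and the labels give no strain, sex, age, treatment or animal. All 8 NeuN plates share 1 name prefix that no unselected plate carries, so the sort and the set of plates cannot be told apart. Since no animal is named, every group counts as 1 sample: no p-value was computed, and ranges over plates show a spread whose source is unknown. Expression is in TPM (transcript abundance scaled to a fixed total and corrected for gene length), which keep no read depth. Detected genes stand in for it, with a median of 4942 in glutamatergic and 4749 in GABAergic nuclei. Exact intervals on shares cover counting error only.

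Slc17a6 itself ranged from 11.3 to 3774 TPM among the glutamatergic nuclei, with a median of 424.9 TPM. These values chose the nuclei and are given as a description. The nuclei nearest the threshold had 11.3, 12.8 and 18.2 TPM inside it, and 8.13, 7.20 and 4.38 TPM outside it. Both Gad genes were at 0 in 55.7% of these nuclei, their sum reached 10 TPM in 33 and 100 TPM in 20. In the whole set 43 nuclei held both Slc17a6 and Gad1 plus Gad2 at 100 TPM or more. No doublet caller was run, and the part that 2 nuclei in 1 well played in these values was not tested.

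Glutamatergic nuclei made up 24 of 50 nuclei on ThrP26 (48%, 33.7 to 62.6%), 18.5% of nuclei on NeuN plates (15.8 to 21.4%) and 8.21% on unselected plates (6.28 to 10.5%). Single NeuN plates ranged from 12.8 to 26.04% with a median of 17.9%. The 12 unselected plates with at least 20 nuclei ranged from 2 to 14.3% with a median of 6.96%, and the ranges of both sorts overlapped. Counted against glutamatergic plus GABAergic nuclei only, the shares were 18.9% with NeuN and 18.5% without it, so that the gap between the sorts seen over all nuclei was not seen among these neurons. On ThrP26 the same share was 92.3% (24 of 26), above every TRN plate. The other 3 adjacent plates held 1 glutamatergic nucleus among 190.

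**Figure D1:**
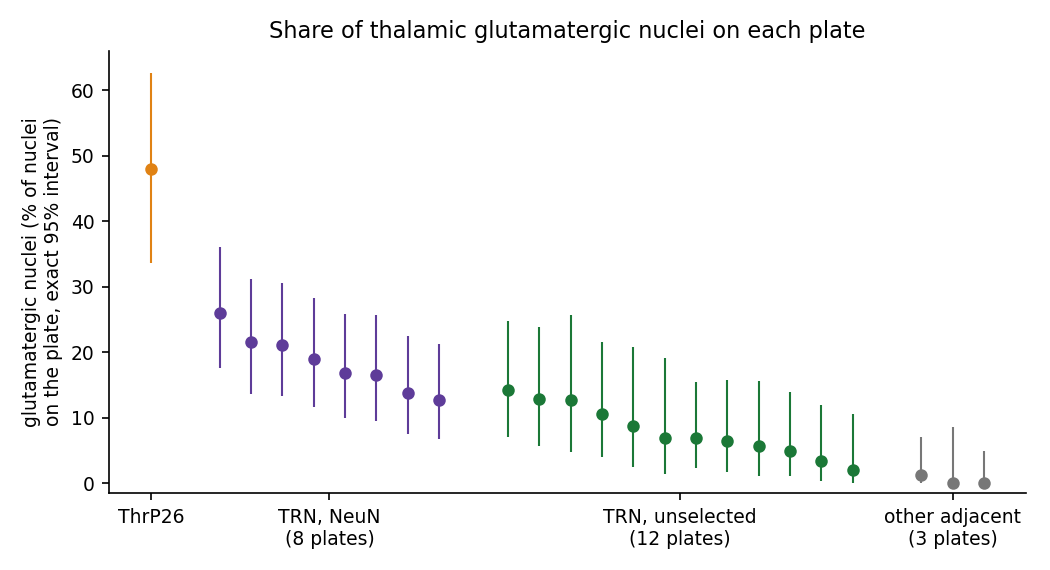
Share of glutamatergic nuclei (vertical axis, percent of all nuclei on the plate) for each plate with at least 20 nuclei, with points for plates and bars for exact 95% intervals. ThrP26 stands at 48%, NeuN plates lie between 12.8 and 26.04%, unselected plates between 2 and 14.3%, and the other adjacent plates near 0.

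The label of thalamic relay neurons was set beside 4 marker genes that the criteria did not use. They were chosen with earlier results of these data known, so they describe the nuclei and are no independent check. Cpne7, a calcium-dependent membrane-binding copine, was found (TPM above 0) in 94.1% of glutamatergic nuclei, against 21.7% of GABAergic nuclei. Tcf7l2 was found in 93.2%, against 10.6%. Prkcd, the delta isoform of protein kinase C, was found in 74.2%, against 14.6%. Slc17a7, the VGLUT1 transporter, was found in 51.6%, against 1.52%. All 4 were found in 47.1% of glutamatergic nuclei, against 0.871%, and none of them in 1.81%, against 61.7%. Most nuclei held several of these markers, and 15 nuclei without Tcf7l2, described further on, went against the label.

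Plate sums of markers of other glutamatergic cells were low, and highest for the cortical and hippocampal list. Such sums do not show markers held by few nuclei. The 10 hypothalamic and subthalamic genes summed to between 0 and 6.93 TPM per plate in glutamatergic nuclei, with Otp, Lmx1b, Foxa1, Nr5a1 and Fezf1 listed at 0. The 5 habenular genes in the table summed to between 1.60 and 27.8 TPM, with Tac2 listed at 0. Of the 8 cortical and hippocampal genes, Neurod6 and Fezf2 were listed at 0, and the sum of 16.9 to 87.9 TPM was mostly Cux2, a homeobox gene found in 64.4% of glutamatergic and 41.1% of GABAergic nuclei. Microglial genes summed to between 1.13 and 19.4 TPM and endothelial genes to between 0 and 21.03 TPM.

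The identity genes can be placed on the mm10 genome (GENCODE M21, GRCm38). Slc17a6 (ENSMUSG00000030500.6) lies on the plus strand of chromosome 7 from 51622006 to 51671119, and Tcf7l2 (ENSMUSG00000024985.19) on the plus strand of chromosome 19 from 55741820 to 55933654. Prkcd (ENSMUSG00000021948.17) lies on the minus strand of chromosome 14 from 30595354 to 30626210, and Shox2 (ENSMUSG00000027833.16) on the minus strand of chromosome 3 from 66971727 to 66981771. The promoters of Slc17a6, Prkcd and Shox2 are shown because Tcf7l2 and Lef1, found in most of the same nuclei, bind a known core, CTTTGA. Each sequence is the 250 bases before the gene's start (RefSeq, GRCm38.p6, 5′ to 3′ on the gene's strand; the more upstream of 2 annotated starts for Slc17a6 and Prkcd), with the core or its reverse complement TCAAAG in capitals.
Slc17a6, chr7:51621580-51621829: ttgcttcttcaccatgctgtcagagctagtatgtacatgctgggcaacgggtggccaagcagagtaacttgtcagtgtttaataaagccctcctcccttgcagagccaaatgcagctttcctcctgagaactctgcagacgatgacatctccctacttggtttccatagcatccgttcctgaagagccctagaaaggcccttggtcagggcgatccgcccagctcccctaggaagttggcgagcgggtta
Prkcd, chr14:30626209-30626458: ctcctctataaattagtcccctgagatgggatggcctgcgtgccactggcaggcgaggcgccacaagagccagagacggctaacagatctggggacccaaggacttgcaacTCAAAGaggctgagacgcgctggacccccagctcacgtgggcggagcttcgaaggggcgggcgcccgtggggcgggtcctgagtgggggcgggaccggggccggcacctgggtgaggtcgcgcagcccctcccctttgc
Shox2, chr3:66981772-66982021: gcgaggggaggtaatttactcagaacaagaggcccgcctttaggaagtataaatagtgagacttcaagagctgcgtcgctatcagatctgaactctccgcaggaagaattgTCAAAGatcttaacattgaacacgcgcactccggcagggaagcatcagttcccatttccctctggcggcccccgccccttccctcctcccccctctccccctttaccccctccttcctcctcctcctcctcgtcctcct
Prkcd and Shox2 each held 1 match, at the same distance from the start in both, and Slc17a6 held none. The other annotated starts of Prkcd and Slc17a6, not printed, held none either. Of the 12 genes with the highest ratios described further on, 10 had promoters to search. A match was held by 2 of these 10, Shox2 among them, against 15.8% of all genes searched. Of all 32851 promoters searched in the same window and on both strands, 13.8% held at least 1 match. The match describes these letters and is no evidence of binding.

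Expression was compared within plates between glutamatergic and GABAergic nuclei, which asks what sets the 2 classes apart. The GABAergic nuclei were not chosen on reticular markers. Six3 was found in 77.6% and Pvalb in 78.5% of all GABAergic nuclei, so the class may hold other cells than reticular neurons. The 13 TRN plates with at least 5 nuclei of each class entered, with 78.7% of the glutamatergic and 78.6% of the GABAergic nuclei and a median of 4949 and 4917 detected genes. The value of a gene is the median over plates of the log2 ratio of mean TPM, glutamatergic over GABAergic, with 1 TPM added to both. A gene was called higher or lower when this median was at least 1 in size, its mean reached 5 TPM in either class and its sign was the same on all 13 plates. By this rule 2.74% of 12505 genes were called higher in glutamatergic nuclei and 2.8% lower, and the median over all these genes was -0.15. Where a plate's mean was 0 in one class, its ratio was set by the 1 TPM added.

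The marker genes were higher in glutamatergic nuclei on every plate. Tcf7l2 had plate means of 380.3, 473.5 and 603.6 TPM (lowest, median and highest of 13) in glutamatergic nuclei, and of 0, 31.9 and 81.95 TPM in GABAergic nuclei. Its log2 ratio was 3.93 (SD 2.37 over plates). Prkcd had 649.9, 1638 and 2779 TPM in glutamatergic nuclei, and 0, 45.5 and 109.1 TPM in GABAergic nuclei, a log2 ratio of 4.83 (SD 2.23). The plates of both classes stood apart for both genes. Cpne7, the most abundant of the set, had 1207.6, 1750 and 2701 TPM in glutamatergic nuclei and 23.9, 99.9 and 163.6 TPM in GABAergic nuclei, with a log2 ratio of 4.08 (SD 1.00). Slc17a7 stood apart as well but at a low level, with 4.67, 18.7 and 192.5 TPM in glutamatergic nuclei and 0, 0.0459 and 1.10 TPM in GABAergic nuclei. Its median was therefore far below that of Slc17a6, which had plate means of 233.6, 429.5 and 761.2 TPM in glutamatergic nuclei.

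**Figure D2:**
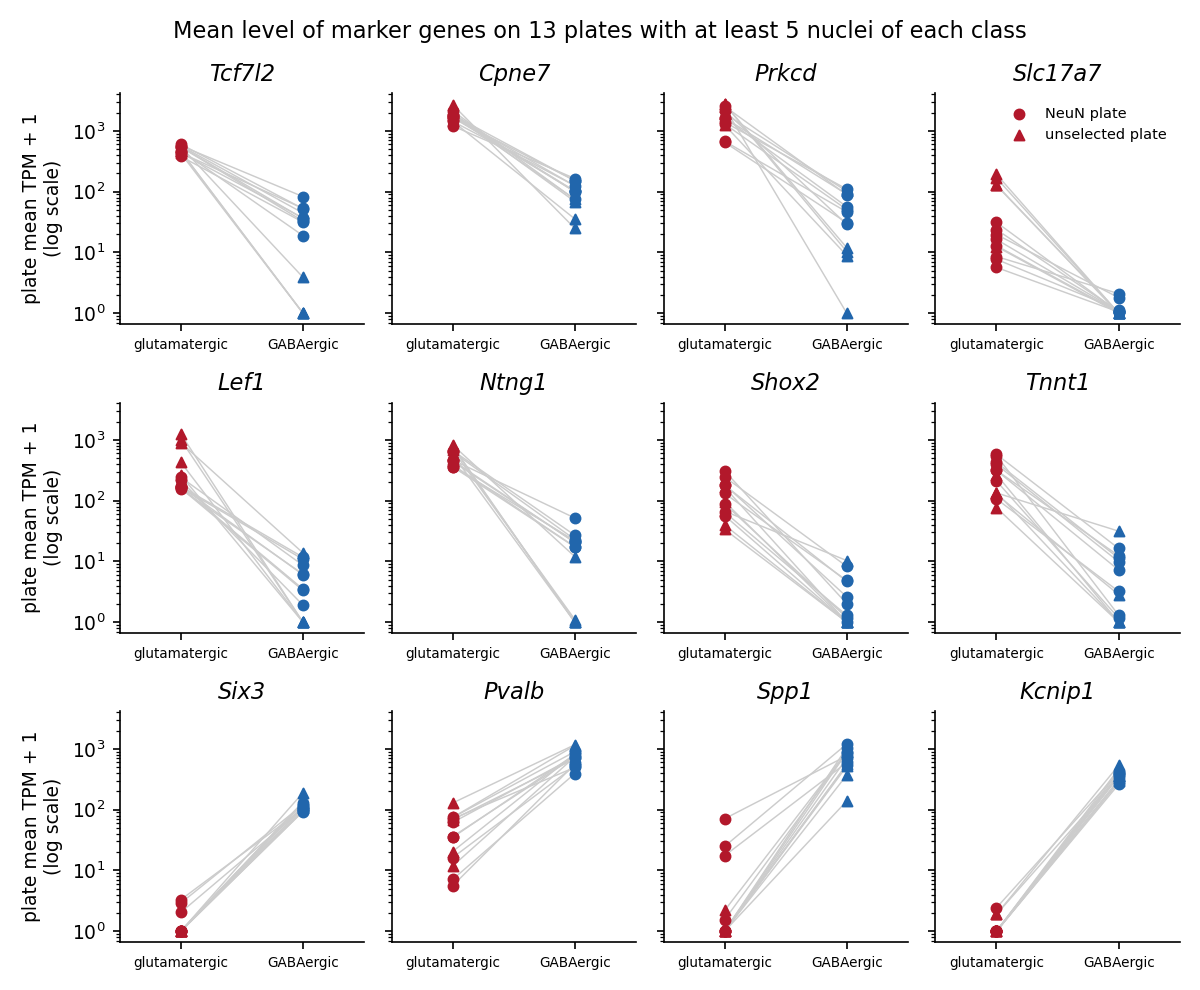
Plate means of 12 marker genes (vertical axis, TPM plus 1 on a log scale) in glutamatergic (left, red) and GABAergic (right, blue) nuclei of 13 plates, with a grey line joining the classes of a plate. Relay genes such as Prkcd (649.9 to 2779 against 0 to 109.1 TPM) stand higher in glutamatergic nuclei on every plate, and Six3, Pvalb, Spp1 and Kcnip1 lower.

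Transcription factors of the thalamus followed the same direction with 1 exception. Of 13 that passed the level filter, 6 were called higher in glutamatergic nuclei and 1 lower, and their median log2 ratio was 2.83. Lef1, which partners beta-catenin at the same sites as Tcf7l2, had 154.95, 214.6 and 1260 TPM in glutamatergic nuclei and 0, 2.51 and 12.8 TPM in GABAergic nuclei, a log2 ratio of 5.59. The homeobox gene Shox2 stood at 5.65, the nuclear receptors Rora and Rorb at 2.93 and 2.18, and the homeobox gene Prox1 at 1.72. Rora had 347.7, 622.7 and 780.1 TPM in glutamatergic nuclei and 44.3, 82.6 and 146.5 TPM in GABAergic nuclei, so it was present in both classes. The orphan receptor Esrrg was the one called lower, at -4.06. Gbx2, Lhx9, Lhx2 and Foxp2 had ratios of 2.83, 4.05, 2.11 and 2.88 but were at 0 in glutamatergic nuclei, or had another sign, on at least 1 plate and were not called.

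Of 15 relay genes past the filter, which include Cpne7 and Prkcd, 12 were called higher and none lower, with a median of 4.08. Ntng1, the synaptic adhesion molecule netrin-G1 of thalamocortical axons, stood at 4.63 and was found in 94.6% of glutamatergic nuclei. Plekhg1, a guanine exchange factor, stood at 4.97, and Rgs16, a G-protein regulator, at 5.17. Amotl1, Ptpn3 and Synpo2 stood at 4.08, 3.97 and 3.58. The calcium-binding protein genes Necab1, Calb1 and Calb2 were not called, with ratios of 1.36, 0.86 and 1.39, and were not higher in glutamatergic nuclei on every plate. In the other direction, 10 of 14 reticular genes were called lower. Pvalb, the calcium buffer of reticular neurons, had 4.62, 35.1 and 127.9 TPM in glutamatergic nuclei and 393.04, 742.9 and 1173.7 TPM in GABAergic nuclei. The transcription factors Six3 and Isl1 stood at -6.74 and -7.06, and Ecel1 was listed at 0 in all glutamatergic nuclei compared. Nell1, a secreted protein listed with the reticular genes, was called higher in glutamatergic nuclei, with 165.2, 293.7 and 434.3 TPM there and 0, 29.6 and 49.8 TPM in GABAergic nuclei.

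Among genes other than the 4 that the criteria used, the 12 highest ratios ran from 5.30 to 6.98. Echdc2, which encodes an enoyl-CoA hydratase-like protein, led with 125.1, 278.5 and 746.3 TPM in glutamatergic nuclei and 0, 0.168 and 15.6 TPM in GABAergic nuclei. Car4, a membrane-anchored carbonic anhydrase, followed with 106.9, 312.6 and 726.8 TPM in glutamatergic nuclei and 0, 1.92 and 37.98 TPM in GABAergic nuclei. For both genes the plates of the classes did not overlap. Receptors and signalling genes were Prkch (protein kinase C eta) at 6.15, Vipr2 (the VPAC2 receptor for the peptides VIP and PACAP) at 5.83, the small GTPase Rasl11a at 5.81, and the adrenergic receptor Adra2b at 5.49. Next to Shox2 and Lef1 stood Grid2ip, a scaffold that binds the delta glutamate receptor, at 5.51, Tnnt1, a troponin T, at 5.45, the hydrolase-fold gene Abhd12b at 5.32 and the neurite growth gene Nrn1 at 5.30. Of these 12, Lef1 and Grid2ip were found in 87.9 and 85.1% of the nuclei compared and the other 10 in 36.8 to 72.4%.

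Genes at the low end were those of the GABAergic partner. The secreted glycoprotein Spp1 stood at -9.02, with a highest plate mean of 69.9 TPM in glutamatergic nuclei and a lowest of 138.01 TPM in GABAergic nuclei. The peptide genes Sst, Npy and Trh stood at -8.61, -8.47 and -7.64. Arc, an immediate early gene of synaptic plasticity, was found in 4.02% of glutamatergic and 75.5% of GABAergic nuclei, with 0, 0 and 54.3 TPM in glutamatergic nuclei and 237.8, 310.2 and 400.1 TPM in GABAergic nuclei. No other of the 7 immediate early genes past the filter was called. Egr1 was found in 53.4% of glutamatergic and 15.2% of GABAergic nuclei with a ratio of 1.81, and Fos in 12.6% and 9.56% with a ratio of 0.58. The remaining genes at this end were Kcnip1, Serpinf1 at -8.07, Eepd1 at -7.40, Ubash3b at -7.34, the pseudogene Gm15881 at -7.30 (its reads may belong to a related gene), the myelin gene Pmp22 at -7.07, and Ecel1.

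Ion channels of burst firing went both ways. Cacna1g, the T-type channel Cav3.1, had 105.5, 188.8 and 272.8 TPM in glutamatergic nuclei and 5.10, 20.7 and 35.9 TPM in GABAergic nuclei, a log2 ratio of 3.23 (SD 0.57). The other T-type genes Cacna1h (Cav3.2) and Cacna1i (Cav3.3) stood at -5.07 and -5.11 and were found in 4.02 and 8.05% of glutamatergic nuclei, against 54.2 and 73.96% of GABAergic nuclei. The plates of the classes did not overlap for Cacna1g and Cacna1i, and overlapped for Cacna1h. Hcn4, a pacemaker channel, was called higher at 2.72 from a low level, with 0.548, 10.4 and 30.8 TPM in glutamatergic nuclei and 0, 0.243 and 8.73 TPM in GABAergic nuclei. Hcn2 and Hcn3 stood at -0.13 and -0.79 and were not called.

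Among calcium-activated SK channels, Kcnn3 had 32.6, 60.95 and 143.35 TPM in glutamatergic nuclei and 0, 4.27 and 10.5 TPM in GABAergic nuclei, a log2 ratio of 3.67. Kcnn2 had 4.81, 66.6 and 211.7 TPM in glutamatergic nuclei and 223.8, 360.6 and 423.6 TPM in GABAergic nuclei, a ratio of -2.37. The plates of the classes did not overlap for either gene. Of the leak channels, Kcnk1 was called lower at -1.74.

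Of 22 voltage-gated potassium channel genes and their partners past the filter, 4 were called higher and 2 lower. Kcnc2 (Kv3.2) had 325.6, 593.4 and 874.9 TPM in glutamatergic nuclei and 65.8, 97.4 and 140.5 TPM in GABAergic nuclei, a ratio of 2.46 (SD 0.41). Kcnd3 (Kv4.3), Kcna4 (Kv1.4) and Kcnip4, which encodes a partner protein of Kv4 channels, stood at 4.09, 3.17 and 3.10. Kcnip1, another Kv4 partner, had 0, 0 and 1.43 TPM in glutamatergic nuclei and 260.9, 353.7 and 536.5 TPM in GABAergic nuclei, at a ratio of -8.29 (SD 0.43). Kcnc4 (Kv3.4) was also called lower, at -4.47, while Kcnc1 stood at -0.35 and was not called.

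**Figure D3:**
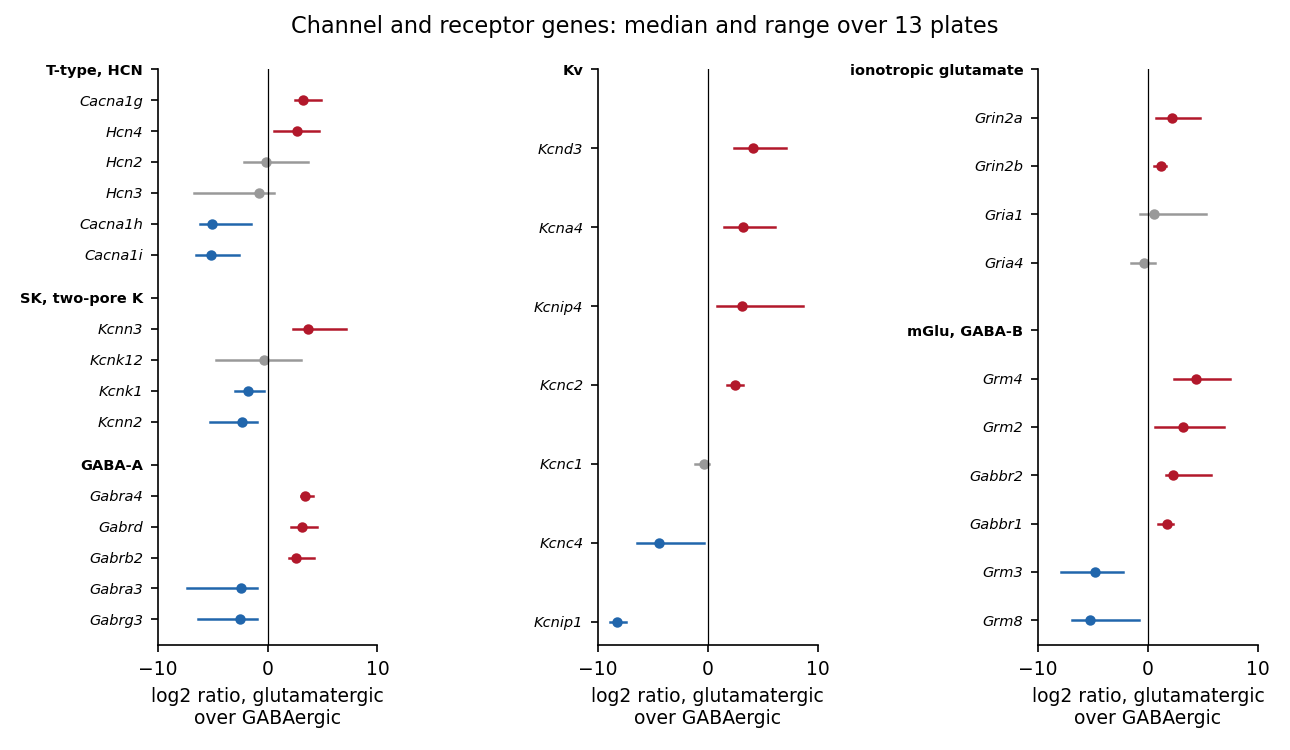
Log2 ratio of glutamatergic over GABAergic plate means (horizontal axis) for the channel and receptor genes named in the text, with a point for the median and a line for the range over 13 plates. Red marks genes called higher, blue those called lower and grey those not called, with Cacna1g at 3.23 and Cacna1i at -5.11.

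Receptors for GABA, which relay neurons receive from the TRN, made up 1 of the wider groups. Of 12 GABA-A subunits past the filter, 4 were called higher and 2 lower. Gabrd, the delta subunit of extrasynaptic receptors, had 514.02, 865.3 and 1560 TPM in glutamatergic nuclei and 37.4, 102.2 and 167.5 TPM in GABAergic nuclei, a ratio of 3.12 (SD 0.68). Gabra4, its usual alpha partner in the thalamus, had 224.97, 282.003 and 521.4 TPM in glutamatergic nuclei and 13.5, 30.5 and 54.7 TPM in GABAergic nuclei, a ratio of 3.40 (SD 0.35). Gabrb2 followed at 2.62. The subunits called lower were Gabra3 and Gabrg3, at -2.44 and -2.48. The 15 subunits summed to 1608, 2135 and 2888 TPM in glutamatergic nuclei and to 499.2, 721.2 and 1148.2 TPM in GABAergic nuclei, without overlap. The GABA-B receptor genes Gabbr1 and Gabbr2 were both called higher, at 1.75 and 2.30.

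Of 9 metabotropic glutamate and GABA-B receptor genes, 5 were called higher, Gabbr1 and Gabbr2 among them, and 2 lower. Grm4 stood at 4.35, with 49.1, 94.97 and 213.3 TPM in glutamatergic nuclei and 0, 4.35 and 16.2 TPM in GABAergic nuclei. Grm2 stood at 3.23. Grm3 and Grm8 were called lower at -4.82 and -5.30. Of 17 ionotropic subunits only the NMDA receptor genes Grin2a and Grin2b were called, both higher, at 2.15 and 1.18, and the AMPA receptor genes Gria1 to Gria4 had ratios between -0.34 and 0.52. Of 13 genes past the filter on a list of modulator receptors, which does not hold Adra2b and Vipr2 described above, none was called higher, and the muscarinic Chrm2 and adrenergic Adra1d were called lower at -2.98 and -5.00. Of 17 synapse organisers, 2 were called higher and 2 lower. Slitrk6 was called higher at 4.64, and Lrrtm3 and Nxph1 were called lower at -3.09 and -3.57.

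Transmitter genes outside the criteria were compared as well. Slc32a1, the vesicular GABA transporter, was found in 0.575% of glutamatergic and 67.5% of GABAergic nuclei and had a ratio of -6.10. The GABA transaminase Abat was called lower at -1.69. Of the enzymes of glutamate supply that neurons of both kinds use, Got1, Got2 and Glud1 had ratios of -0.84, -0.78 and -0.43 and were not called. Of the 6 neuronal markers past the filter, none was called, with a median of 0.37.

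Several relay ratios were smaller on NeuN plates. Tcf7l2 had a median ratio of 3.58 on NeuN plates and 8.74 on unselected plates, Ntng1 of 4.45 and 9.27, Lef1 of 4.82 and 8.75, and Prkcd of 4.54 and 7.86. The gap was smaller for Cpne7 (3.82 and 4.85) and Plekhg1 (4.86 and 5.38), and Shox2 stood at 5.74 with NeuN and 5.32 without it. A plate ratio with a GABAergic mean near 0 was set mostly by the 1 TPM added. The unselected plates compared held fewer GABAergic nuclei each, and the part of this in the gaps was not tested. Over all nuclei of a sort, Tcf7l2 means in GABAergic nuclei were 42.6 TPM with NeuN and 7.53 TPM without it. In glutamatergic nuclei they were 493.9 and 494.6 TPM. Prkcd means were 62.02 and 42.2 TPM in GABAergic and 1466.5 and 2119.4 TPM in glutamatergic nuclei. The level of Lef1 in glutamatergic nuclei differed between the sorts as well, at 180.6 TPM on NeuN plates and 772.4 TPM on unselected plates. Detection in GABAergic nuclei also differed. Tcf7l2 was found in 13.4% of NeuN-selected and 5.98% of unselected GABAergic nuclei, Ntng1 in 11.1 and 2.79%, and Prkcd in 18.1 and 7.97%. Detected genes in GABAergic nuclei numbered 5030 at the median with NeuN and 4100 without it. Rora and Gabra4 had ratios of 2.94 and 3.24 on NeuN plates and 2.78 and 3.44 on unselected plates. The part of free RNA, of joined nuclei and of detection in these values was not tested. Oligodendrocyte genes, which the criteria did not use, were not called over all 13 plates (0 of 8, median -1.78). On NeuN plates alone 0 of 8 were called, and on unselected plates alone 6 of 8 were called lower in glutamatergic nuclei. Their sum ranged from 9.00 to 4591 TPM per plate in glutamatergic nuclei and from 378.5 to 7246 TPM in GABAergic nuclei.

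Nuclei on ThrP26 were set against those of the TRN plates to ask how far glutamatergic nuclei of this adjacent-tissue plate carry the same transcripts. A gene was called when its mean on ThrP26 lay outside the range of all 13 TRN plates, differed by at least 1 in log2 and reached 5 TPM in either group. Of 12185 genes, 4.29% were called higher on ThrP26 and 0.985% lower. None of the 15 relay genes, of the 13 thalamic transcription factors or of the 4 markers was called, and their medians were -0.03, 0.00 and -0.13. Lists this short can hold no called gene at the shares over all genes, so these counts do not show equal levels. Prkcd had a mean of 2226 TPM on ThrP26, against 649.9 to 2779 TPM on TRN plates, and was found in 24 of 24 nuclei there, against 69.5% of nuclei on TRN plates. Tcf7l2 had 488.6 TPM on ThrP26, against 380.3 to 603.6 TPM on TRN plates, and was found in 24 of 24 nuclei.

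Vipr2 stood apart, with 405.2 TPM on ThrP26 and 65.998 to 316.7 TPM on TRN plates. It was found in 87.5% of ThrP26 nuclei and 49.4% of the others, a log2 ratio of 1.31. The potassium channel Kcnk12 (37.7 TPM, against 0 to 34.7 TPM, in 33.3% against 10.3% of nuclei) and the nicotinic subunit Chrna3, found in 4.17% of ThrP26 nuclei, were the only other listed channel and receptor genes called. The largest ratios came mostly from 1 or 2 of 24 nuclei. Dusp10, Insc, Zf12, Vmn1r53 and Olfr1135 had ratios of 4.60 to 4.95 and were found in 4.17 to 8.33% of ThrP26 nuclei, and Gm10863, Mir3074-1 and Pdzd3 were listed at 0 in all other nuclei compared. Members of the vomeronasal and olfactory receptor families share sequence with close copies, so their values are uncertain. At the other end Rsl1d1, a nucleolar protein gene, had a mean of 0.118 TPM on ThrP26 and 5.88 to 251.6 TPM on TRN plates, and was found in 4.17 and 40.2% of nuclei. Phospho2, BC029722, Adcyap1r1 (the PACAP receptor), C130030K03Rik, Pigt and Dek had ratios between -5.63 and -4.22, and Mxd1 was listed at 0 on ThrP26. Among genes found in at least 25% of either group, a criterion chosen after seeing the data, 0.522 times as many were called higher and 0.917 times as many lower, led by 2900092D14Rik at 4.34 and 4930565N06Rik at 3.38. ThrP26 is 1 plate, so plate and tissue cannot be told apart.

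**Figure D4:**
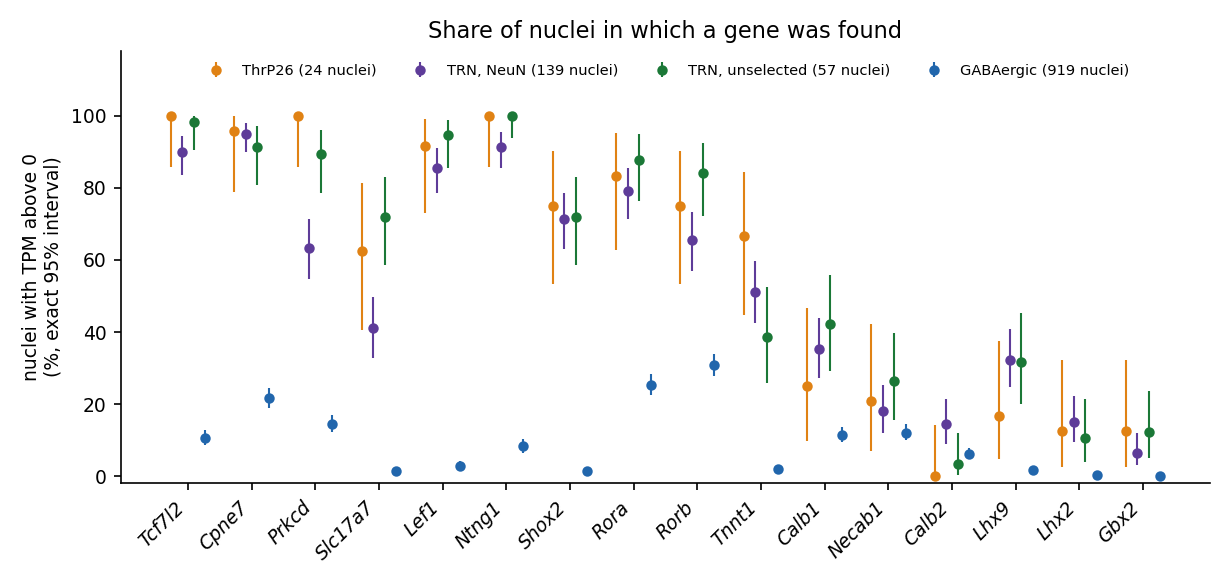
Share of nuclei in which each of 16 genes was found (vertical axis, percent with TPM above 0, bars for exact 95% intervals) in glutamatergic nuclei of ThrP26, NeuN and unselected TRN plates and in GABAergic nuclei. Tcf7l2, Cpne7 and Ntng1 were found in over 89% of nuclei in each glutamatergic set, while Prkcd was found in 63.3% with NeuN selection and 89.5% without it.

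Within the TRN plates, the NeuN sort and the Violet sort gave glutamatergic nuclei between which Calb2 and Lef1 alone were called among the 15 relay genes and 13 thalamic transcription factors. Prkcd was found in 63.3% of NeuN-selected nuclei (54.7 to 71.3%) and in 89.5% of unselected ones (78.5 to 96.04%). Slc17a7 was found in 41.01% (32.7 to 49.7%) with NeuN and 71.9% (58.5 to 83.03%) without it. Detected genes in glutamatergic nuclei numbered 5031 at the median with NeuN and 4682 without it. Of the 57 nuclei without Prkcd, 51 were on NeuN plates and 6 on unselected ones, and 44 of the 57 held Tcf7l2. Single NeuN plates had Prkcd in 46.7 to 87.5% of nuclei.

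By the rule that no plate of one sort overlaps the other, 1.05% of 12291 genes were called higher with NeuN and 0.252% (31 genes) lower. Among the genes lower with NeuN was Lef1, with plate means of 154.95, 167.999 and 242.1 TPM on NeuN plates and 261.9, 904.2 and 1260 TPM on unselected plates (lowest, median and highest), a log2 ratio of -2.09. In GABAergic nuclei the Lef1 ratio was 0.87. The others at this end were the adrenergic receptor Adra1b at -2.60, the receptor kinase Flt3 at -2.51, Elmsan1, Nr5a2, the citron kinase Cit, Sbf1 and Snrpd2, the last at -2.22. In GABAergic nuclei Cit, Sbf1, Adra1b, Flt3 and Snrpd2 had ratios of -1.90, -1.57, -1.20, -1.18 and -0.75 between the sorts, and Elmsan1 and Nr5a2 of -0.15 and -0.04. At the high end, the calretinin gene Calb2 had 0.739, 63.96 and 183.1 TPM on NeuN plates and was listed at 0 on all 5 unselected plates compared, and Ttr, a plasma and choroid plexus transcript, had 10.7, 130.4 and 2972 TPM on NeuN plates and was listed at 0 on the others. GABAergic nuclei had 811.4 TPM of Ttr with NeuN and 0 without it. Myelin and precursor genes (Mag, Enpp2, Olig1) and Apod were also at this end, with Ankrd6 and Grwd1. Oligodendrocyte markers summed to 243.4, 1764 and 4591 TPM in glutamatergic nuclei of NeuN plates and to 9.00, 53.7 and 911.2 TPM on unselected plates, and their part in these calls was not tested. With 5 more unselected plates of 3 or 4 nuclei, 24 genes were called higher and 2 lower. Of the 16 genes named in this comparison, 2 were then called in the same direction and 12 were not called, Lef1 and Calb2 among the 12, while Mag and Enpp2 turned to -0.10 and -0.12.

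The 15 glutamatergic nuclei without Tcf7l2 lacked most of the relay transcripts. The split was made after the values were seen and is described without a test. Of them, 14 lay on NeuN plates, with at least 1 on each of the 8, and 1 on an unselected plate, while ThrP26 had none. Their Slc17a6 ranged from 42.2 to 1421 TPM with a median of 695.3 TPM, against a median of 399.7 TPM in the others. Lef1, Osbpl3, Synpo2, Grid2ip and Tanc1 were found in none of the 15 and in 85.9 to 95.1% of the others. Prkcd and Rora were each found in 2 of 15, Ntng1 in 4 and Cpne7 in 8. The peptide gene Cck, the GABA-A subunit Gabrd, the nicotinic subunit Chrna4 and Nell2 were each found in 1 of 15, against 94.2 to 96.1% of the others.

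These nuclei held transcripts that the other glutamatergic nuclei rarely had. The enkephalin gene Penk was found in 12 of 15 and in 3 of those with Tcf7l2, with means of 1290 and 2.35 TPM. Calb2 was found in 11 of 15 and in 11 of the others. The PACAP gene Adcyap1 and the exocytosis gene Baiap3 were each found in 11 of 15, and in 9 and 1 of the others. Reln (the matrix protein reelin) was found in 10, and the transcription factor Ebf2, the otoferlin gene Otof and the T-type channel gene Cacna1i in 9 each. Tbr1, a transcription factor on the cortical and hippocampal list, was found in 6 of 15 and in 5 of the others. In all, 18 genes were found in at least 60% of the 15 and at most 10% of the others, and 16 in at most 10% of the 15 and at least 85% of the others.

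Markers of the reticular class were not the ones that these nuclei held. Six3, Pvalb, Spp1 and Slc32a1 were found in 0 of 15, and Sst in 1. Gad1 was found in 7 and Gad2 in 3, and Gad1 plus Gad2 reached 100 TPM in 5 of the 15 and in 15 of the others. Neurod6 of the cortical list and Tac2, Pou4f1 and Gpr151 of the habenular list were found in none of the 15. Other members of these lists were found, with Chrnb4 (habenular) in 10 of 15 and 52.4% of the others, and Cux2 (cortical) in 3 of 15 and 67.5%. Detected genes numbered 3903 at the median, against 4997.5 in the others, and no cell type is assigned to them here. Leaving them out, a comparison added after the data were seen, gave 1.03 times as many genes called higher than in GABAergic nuclei and 1.11 times as many lower, which held 98.3 and 94.6% of those called with them. Between the sorts it gave 0.845 times as many called higher and 26 lower.

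**Figure D5:**
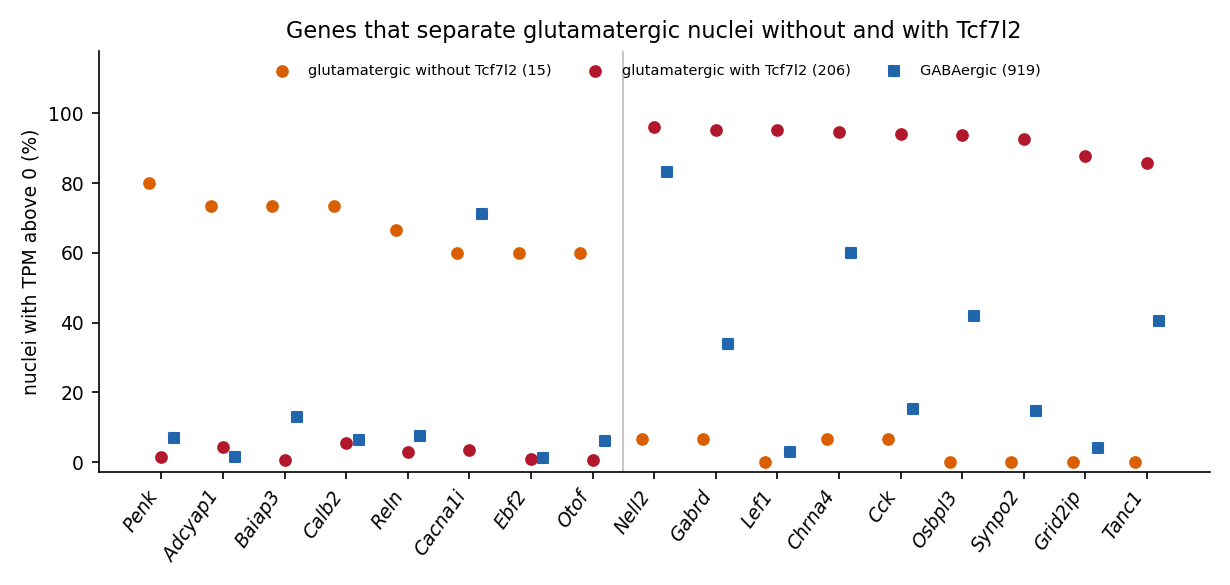
Share of nuclei with TPM above 0 (vertical axis, percent) for genes named in the text, in glutamatergic nuclei without Tcf7l2 (15), in those with it and in GABAergic nuclei. Penk was found in 80% and 1.46% of the glutamatergic sets and Lef1 in 0 and 95.1%, and the genes were chosen for this difference.

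Within the glutamatergic nuclei, genes known to differ between thalamic nuclei were found in different nuclei. At 10 TPM or more, Tnnt1 was found in 110, Calb1 in 70, Shox2 in 150, Lhx9 in 58, Necab1 and Lhx2 in 27 each, Calb2 in 21 and Gbx2 in 17. Tnnt1 and Necab1 shared 2 nuclei, which are 7.41% of those with Necab1, while 55.7% of nuclei without Necab1 held Tnnt1. Necab1 and Calb1 shared 19, which are 70.4% of the nuclei with Necab1 and 27.1% of those with Calb1. Prkcd was found in 100 of the 110 nuclei with Tnnt1, in 89 of the 92 with Slc17a7 and in 14 of the 27 with Lhx2. Calb2 came in both kinds of nuclei, 11 without Tcf7l2 and 10 with it, and all of these 10 held Prkcd. Within plates Prkcd correlated with Slc17a7, Rora and Ntng1 across nuclei (Spearman correlations of 0.52, 0.51 and 0.52), as a description over nuclei that share plates and detection.

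A principal component of the 1000 most variable genes, centred within plates over the glutamatergic nuclei compared, held 6.31% of their variance. It ran with the number of detected genes (Spearman correlation 0.82), and 95.5% of its loadings had the same sign. The 10 genes at its positive end were Pcp4, Rgs4, Prkcd, Mpc2, Plxdc1, Cox5a, Rora, Rgs16, Atp5f1 and Eno1. At its other end were Ntrk3, Cadm1, Epha10, Timp2, Ndrg1, Fhl1, Tmem91, Gstp1, Ldha and Lin7b. The part of library quality in this component was not tested. The next component held 2.28% and ran less with detected genes (correlation -0.22), with Prkcd, Bcan, Rasa4, Pcp4 and Vipr2 among the 10 genes at one end and Timp2, Cadm1 and Cd200 among those at the other.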

How the data were processed

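Single mouse nuclei were sequenced with a modified Smart-seq2 protocol after sorting on Violet or on Violet and NeuN, per the labels' protocols. The submitters' processing notes name RSEM 1.2.87, Bowtie, TopHat2 2.0.10, Seurat 2.2.0 and mm10. The deposited values were read as natural log (ln) of 1 plus scaled TPM, with a scale that differs between nuclei. Undoing the logarithm and rescaling each of 1687 columns to a sum of 1000000 gave TPM for 23420 genes, and all 236907 values under 2 TPM lay on steps of 0.01 within 0.1 step. TPM keep no counts, so depth is unknown and no count test was run. Groups follow the plate type label, and plates the column names. Comparisons used plate means, a pseudocount of 1 TPM, a minimum of 5 TPM and of 5 nuclei per class and plate, and no test. Named genes were the 12 highest and 12 lowest called (8 and 8 for the ThrP26 and sort comparisons, 10 at each end of the component) and members of gene lists; others, such as those of nuclei without Tcf7l2, were chosen after their values were seen. The nuclei and lists were chosen with earlier results of these data known. Computation used scipy 1.17.1, pandas 2.3.3, numpy 2.4.6 and matplotlib 3.10.9 under Python 3.11.15. Some genes of the lists are not reported here.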

Additional observations from a re-analysis of the deposited data

How the results depend on the processing

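No paired analysis was possible because the plates carry no replicate number that pairs groups and no test was run, although glutamatergic and GABAergic nuclei were compared plate by plate. Requiring Gad1 plus Gad2 at 0 gave a glutamatergic share of 7.29%, and the other 5 settings gave 11.97 to 13.5%. Numbers of called genes are given below as multiples of those in the report. Leaving out each plate in turn gave 0.991 to 1.10 times as many genes called higher and 1.05 to 1.12 times as many lower than in GABAergic nuclei. As a difference of mean log2(TPM + 1) the multiple was 1.65 for genes higher than in GABAergic nuclei, 0.436 for genes higher on ThrP26 and 0.605 for genes higher with NeuN, and held 17.02% of the genes called higher on ThrP26 and 27.9% of those called higher with NeuN. Against GABAergic nuclei, plates with at least 10 nuclei of each class gave 1.57 times as many lower, NeuN plates alone 1.80 times as many lower, and unselected plates alone 1.88 times as many higher and 3.18 times as many lower. In each of these settings fewer plates must share a sign, and the part of plate number and of the sort in the multiples was not tested. For ThrP26, unselected plates alone gave multiples of 3.00 higher and 2.64 lower, NeuN plates alone 1.63 and 6.08, and genes found in at least 25% of either group 0.522 higher. For the sort, nuclei with Gad1 plus Gad2 at 0 gave 2.04 higher and 4.10 lower on 10 plates, plates with at least 3 nuclei 0.186 and 0.0645, and genes found in at least 25% of either group 0.488 higher. With plates of at least 3 nuclei, Mag and Enpp2 turned to -0.10 and -0.12; the cause was not tested. In the comparison with GABAergic nuclei, 23 of the 24 named genes were called under every setting, and the other missed the rule where glutamatergic nuclei had Gad1 plus Gad2 at 0. Of 16 named genes in the ThrP26 comparison, 9 lost the call when log values were averaged over nuclei, and 11 did among genes found in at least 25% of either group. Of 16 in the sort comparison, 7 and 5 lost it under these settings. With plates of at least 3 nuclei 12 lost it, besides Mag and Enpp2, which turned. The median over all genes lay between -0.29 and 0.02 over the settings. Depth is unknown, so a gene listed at 0 may be undetected.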
